A study of Homo sapiens with 6 samples.

Results

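The genes that move zinc across membranes were compared between apigenin-treated and control liver cancer cells. These were 10 genes, taken by symbol from the 23059 genes in the count and FPKM tables. Among them are 5 of the SLC30 family (SLC30A1, SLC30A5, SLC30A6, SLC30A7 and SLC30A9) and 5 of the SLC39 family (SLC39A1, SLC39A4, SLC39A6, SLC39A10 and SLC39A14). All 10 passed the filter on low counts, which left 15173 genes for testing. The cells were HCC-LM3, a line of human hepatocellular carcinoma that metastasizes readily. They received apigenin, a flavone found in many plants, or DMSO, the solvent control. RNA of 3 samples per group, named biological replicates in the labels, was sequenced. The sources used here give no dose or duration and do not say whether the treated cells also received DMSO. All 6 samples are of 1 cell line, and p-values measure the spread between these samples.

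Free zinc in the cytosol is kept very low by transporters of opposite direction. Most SLC30 proteins (ZnT) carry zinc out of the cytosol, across the plasma membrane or into organelles and vesicles, whereas SLC30A9 exports it from mitochondria. SLC39 proteins (ZIP) carry it into the cytosol from outside or from organelles. The transcription factor MTF1 senses a surplus of zinc and switches on the metallothionein genes, whose small proteins bind the metal, and the exporter gene SLC30A1, through DNA elements known as metal response elements. The liver takes up much of the body's plasma zinc, in part through SLC39A14.

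Of the 10 transporter genes, the exporter gene SLC30A1 rose with apigenin and the other 9 did not pass the test. SLC30A1 rose 1.17-fold, from a mean of 111 to 129 CPM, which are counts scaled to library size. In such bulk RNA, more transcript per cell and more cells that express the gene cannot be told apart. The call was lost when any 1 of 4 libraries was left out (DMSO 1, 2 or 3 or apigenin 1) and held without apigenin 2 or apigenin 3. SLC30A1 was called by DESeq2 but not by limma or by edgeR with a replicate block, and its call held in 9 of 17 alternatives. None of the 5 importer genes was called by edgeR's quasi-likelihood test, 0 had an unadjusted p under 0.05, and 0 were called by DESeq2 or limma. Limma thus called neither the exporter gene SLC30A1 nor an importer gene. Over all 15173 tested genes, 2.76% were called higher and 4.22% lower, 6.99% in either direction, so that 1 call among 10 is close to the share of all genes. The median log2 fold change of the 10 was 0.07 (0.065 before rounding), against 0.004 over all tested genes.

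Libraries held 33882145 to 37983636 counts, and each of the 10 genes had 488 or more counts in every library. All 7 hepatocyte markers had a mean of 1 CPM or more, with KRT8 at 2469, ALB at 88.0 and HNF4A at 73.6 CPM, while APOA1 (1.03 CPM) and TTR (2.22 CPM) were low. ALB, the albumin gene, fell from 125, 125 and 119 CPM with DMSO to 51.5, 53.4 and 53.9 CPM with apigenin (log2 fold change -1.22 ± 0.060, edgeR adjusted p = 3.82e-08), and of these 7 markers 1 was called lower and 0 higher. The values of APOA1 (-1.35 ± 0.479, edgeR adjusted p = 0.1) and TTR (-0.93 ± 0.314, edgeR adjusted p = 0.0889) did not pass. Among markers of other cell types, 1 of 5 fibroblast, 2 of 4 endothelial and 1 of 4 leukocyte genes had 1 CPM or more, namely LUM, PECAM1, KDR and CD68. PTPRC (0.126 CPM), CD3E (0.00496 CPM), PDGFRB (0.0336 CPM), COL1A2 (0.056 CPM) and CDH5 (0.0641 CPM) were near 0. The summed hepatocyte markers, mostly KRT8 and KRT18, were at 3573 to 3665 CPM with DMSO and 3141 to 3629 with apigenin. The summed fibroblast markers, mostly LUM, were at 23.8 to 25.6 CPM with DMSO and 29.3 to 31.8 with apigenin. LUM was the only 1 of 3 tested fibroblast markers to be called, and it was higher (log2 fold change 0.33 ± 0.083, edgeR adjusted p = 0.0313). The summed endothelial markers were at 105 to 111 CPM with DMSO and 87.1 to 96.3 with apigenin, and the leukocyte ones at 86.6 to 94.4 and 85.8 to 95. The part of these differences in the zinc results was not tested. Fold changes also followed gene length. Against the DMSO mean, log2 CPM changed per doubling of gene length by -0.071 in apigenin 1, -0.021 in apigenin 2 and -0.147 in apigenin 3, and by -0.005 to 0.003 in the DMSO libraries. The 10 genes are 2801 to 11039 nucleotides long by the lengths behind the deposited FPKM, so each is also given with this trend removed. Gene length means that length here, not the span on the chromosome.

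The bases just upstream of SLC30A1, the called gene, of SLC30A6, the other gene whose apigenin libraries all lay above the DMSO libraries, and of MT2A, the most abundant metallothionein gene here, are shown because metal response elements lie in such stretches. Each is the 250 bases before the gene's RefSeq start (GRCh38.p14), read along the gene 5′ to 3′, and capitals mark matches to the core of the metal response element, TGCGCNC or TGCACNC, on either strand.
SLC30A1, chr1:211579162-211579411, minus strand: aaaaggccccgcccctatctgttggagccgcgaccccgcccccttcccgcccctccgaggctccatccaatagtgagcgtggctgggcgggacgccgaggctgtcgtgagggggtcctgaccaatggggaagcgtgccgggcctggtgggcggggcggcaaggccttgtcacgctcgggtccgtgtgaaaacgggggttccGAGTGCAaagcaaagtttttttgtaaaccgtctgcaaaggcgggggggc
SLC30A6, chr2:32165614-32165863, plus strand: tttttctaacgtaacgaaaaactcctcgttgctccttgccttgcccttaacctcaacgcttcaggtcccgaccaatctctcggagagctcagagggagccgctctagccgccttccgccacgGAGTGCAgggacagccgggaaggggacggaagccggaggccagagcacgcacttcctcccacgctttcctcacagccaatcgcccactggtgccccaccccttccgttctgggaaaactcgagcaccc
MT2A, chr16:56608334-56608583, plus strand: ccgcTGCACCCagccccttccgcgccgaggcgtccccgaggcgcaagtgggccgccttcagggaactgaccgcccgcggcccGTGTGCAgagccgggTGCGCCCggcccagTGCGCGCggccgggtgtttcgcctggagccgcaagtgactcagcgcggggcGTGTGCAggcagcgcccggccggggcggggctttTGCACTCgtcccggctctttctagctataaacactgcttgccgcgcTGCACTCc
SLC30A1 held 1 match, 49 to 43 bases before the start. SLC30A6 also held 1, 128 to 122 bases before it, and MT2A held 7, while MT1X, a further metallothionein gene, held 4. SLC39A6 and the downstream of the 2 starts listed for SLC39A1 held 1 match each. The windows of SLC30A5, SLC30A7 and SLC30A9, the other start of SLC39A1 and both starts of SLC39A10 held none. Both SLC39A10 windows lie inside the span of that gene, so the bases before its span were not searched. SLC39A4 and SLC39A14, and the metallothionein genes MT1E, MT1G and MT1M, had no upstream sequence here and were not searched. Of the 35116 such windows that were available, 24.8% held 1 or more matches and 0.37% held 4 or more, so that 1 match is common. A match is a string of letters and was not tested for binding.

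Levels per gene length under DMSO spanned a wide range. SLC39A1, which encodes a widely expressed importer of the plasma membrane, stood highest with 88.3, 85.7 and 85.9 FPKM in DMSO 1, 2 and 3, above 95% of tested genes. Next came the importer genes SLC39A6, at 22.3 ± 1.22 FPKM (SD, n = 3), and SLC39A14, at 20.1 ± 0.197 FPKM, ahead of the exporter gene SLC30A1 at 18.8 ± 0.183 FPKM. Below these lay SLC30A5 (15.1 ± 0.616 FPKM), SLC30A9 (9.95 ± 0.652), SLC30A6 (8.77 ± 0.341) and SLC39A10 (8.21 ± 0.254). SLC30A7, at 5.37 ± 0.49 FPKM, and SLC39A4, at 5.0 ± 0.024 FPKM, closed the order near the middle of all tested genes. The DMSO ranges of SLC30A6 and SLC39A10 overlapped, as did those of SLC30A7 and SLC39A4, while the other neighbours in this order were apart in all 3 DMSO libraries. SLC39A1 alone made up 59.9 to 61.7% of the summed FPKM of the 5 importers under DMSO and 59.8 to 64.6% with apigenin. Summed over the 5 exporters and vesicle loaders, with the mitochondrial SLC30A9 among them, FPKM were 58.9, 56.9 and 58.1 with DMSO and 59.0, 64.3 and 59.3 with apigenin. Over the 5 importers they were 143, 140 and 143 against 149, 148 and 145.

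**Figure D1:**
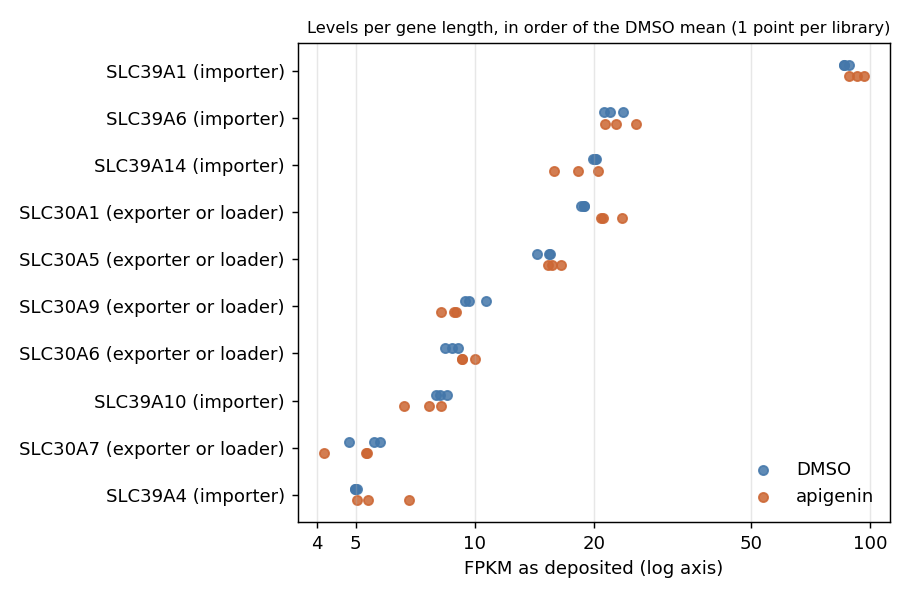
Deposited FPKM (log axis) of the 10 zinc transporter genes in order of their DMSO mean, with 1 point per library, DMSO in blue and apigenin in orange. SLC39A1 stands apart at 85.7 FPKM or more, and SLC30A1 lies below SLC39A14 in the DMSO libraries and above it in the apigenin libraries.

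SLC30A1 (chromosome 1, 211571568 to 211579161, minus strand) encodes the zinc exporter of the plasma membrane. It had 112, 111 and 110 CPM in DMSO 1, 2 and 3 and 123, 138 and 126 CPM in apigenin 1, 2 and 3. Every apigenin library lay above every DMSO library, and the DMSO libraries lay close together. The log2 fold change was 0.22 ± 0.061 (SE, n = 3 per group, 95% interval 0.09 to 0.35, edgeR adjusted p = 0.0441). The highest value was that of apigenin 2, the treated library with the smallest slope on gene length. The length of SLC30A1 by the FPKM, 5893 nucleotides, is above the median of 3872 for tested genes. With the length trend removed the log2 fold change was 0.28 ± 0.049 (edgeR adjusted p = 0.000943). The call was lost when DMSO 1, DMSO 2, DMSO 3 or apigenin 1 was left out, with log2 fold changes of 0.23, 0.22, 0.21 and 0.25 and edgeR adjusted p of 0.173, 0.159, 0.185 and 0.0912. It held without apigenin 2 (0.17, edgeR adjusted p = 0.0441) and without apigenin 3 (0.24, edgeR adjusted p = 0.00479). Those 2 settings called 1344 of 15513 and 575 of 15580 genes higher, against 419 of 15173 with all libraries. The settings that lost the call, in the order above, called 103, 140, 124 and 126 genes higher.

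SLC30A5 and SLC30A6 encode partners that form a complex and load zinc into the early secretory pathway, where enzymes such as alkaline phosphatases acquire the metal. SLC30A6 (chromosome 2, 32165864 to 32224379, plus strand) had 66.2, 61.1 and 64.2 CPM with DMSO and 67.5, 72.2 and 68.5 CPM with apigenin. The groups did not overlap, although the lowest apigenin and the highest DMSO library lay near each other. Its log2 fold change of 0.12 ± 0.065 did not pass the test (95% interval -0.02 to 0.26, edgeR adjusted p = 0.273). SLC30A6 is long, at 7276 nucleotides by the FPKM. With the length trend removed it stood at 0.21 ± 0.057 and was called (edgeR adjusted p = 0.0204), in a setting that called 4.63% of all genes higher. SLC30A5 (chromosome 5, 69094014 to 69131069, plus strand) had 72.3, 67.6 and 73.4 CPM with DMSO and 71.7, 76.9 and 74.9 CPM with apigenin. These groups overlapped (log2 fold change 0.07 ± 0.064, 95% interval -0.07 to 0.21, edgeR adjusted p = 0.56).

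SLC30A7 encodes a further loader of the Golgi, which works without those partners. It lies on chromosome 1 (100896090 to 100996078, plus strand), where its span overlaps DPH5 on the other strand, so reads in the shared stretch cannot be told apart if strand was not used in counting. Its values were 47.2, 56.2 and 54.6 CPM with DMSO and 52.0, 52.0 and 41.4 CPM with apigenin. The groups overlapped, and apigenin 3 was lowest. The log2 fold change was -0.12 ± 0.095 (95% interval -0.32 to 0.08, edgeR adjusted p = 0.478), and 0.01 with the length trend removed, at a length of 9804 nucleotides by the FPKM.

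SLC30A9 (chromosome 4, 41990530 to 42090461, plus strand) encodes a transporter that exports zinc from mitochondria. It had 72.5, 64.1 and 65.7 CPM with DMSO and 55.7, 59.5 and 61.6 CPM with apigenin. All 3 apigenin libraries lay below the DMSO libraries, the only one of the 10 genes for which this was so. The difference did not pass the test over all genes (log2 fold change -0.19 ± 0.071, 95% interval -0.35 to -0.04, unadjusted p = 0.0169, edgeR adjusted p = 0.112). It was called without apigenin 3 (-0.23, edgeR adjusted p = 0.0323), a setting that called 5.31% of all genes lower, and stood at -0.11 with the length trend removed (edgeR adjusted p = 0.337). In all, 2 of the 10 genes had apigenin libraries that all lay above the DMSO libraries and 1 had them all below, against 14.4% and 15.0% of all tested genes, 29.4% in either direction.

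**Figure D2:**
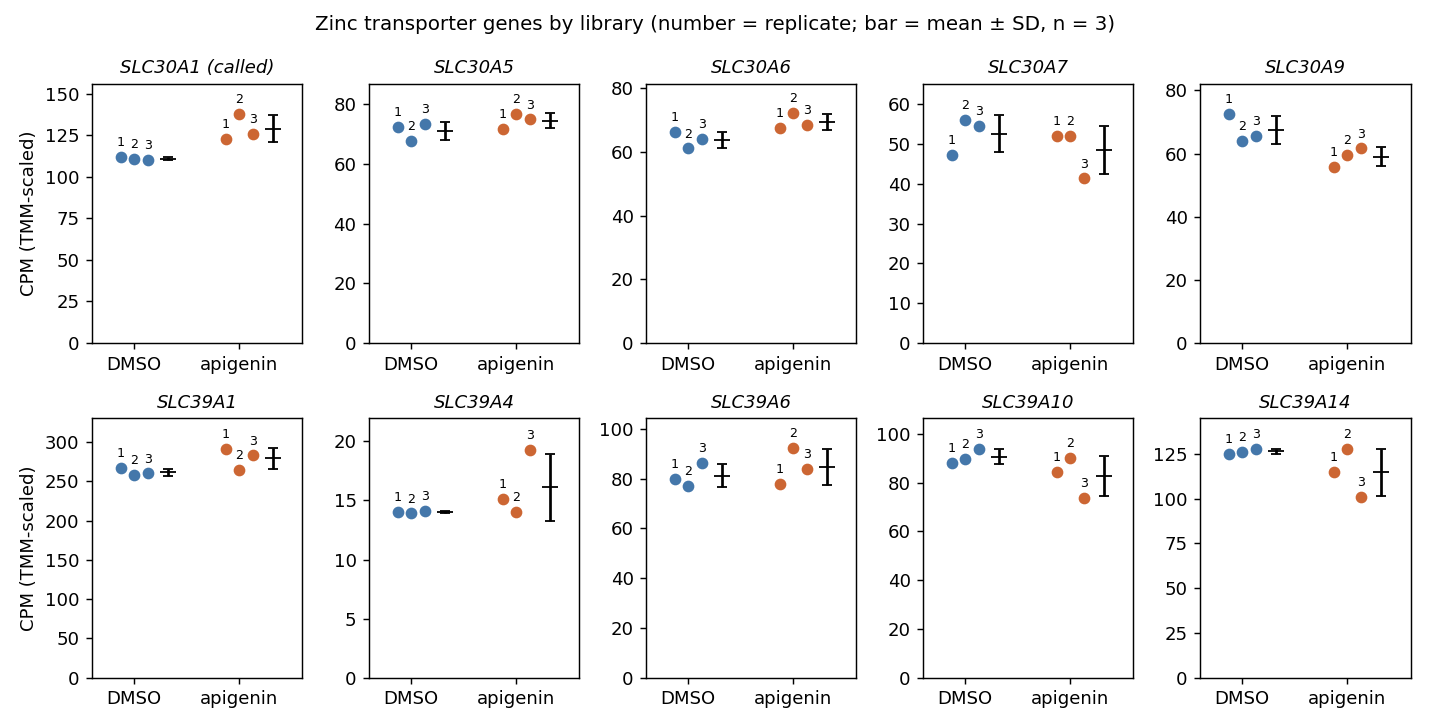
TMM-scaled CPM of the 10 zinc transporter genes in each library (points, numbered by replicate), with the mean ± SD of 3 libraries per group beside them and axes starting at 0. The groups are apart for SLC30A1, SLC30A6 and SLC30A9, and apigenin 3 is the lowest library for SLC30A7, SLC39A10 and SLC39A14 and the highest for SLC39A4.

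Among the importers, SLC39A14 encodes the main route of zinc uptake into liver cells during inflammation, and also carries iron and manganese. The gene, on chromosome 8 (22367278 to 22434129), had 125, 126 and 128 CPM with DMSO and 115, 128 and 101 CPM with apigenin. Apigenin 2 lay with the DMSO libraries and the other apigenin libraries lay below them, so that the groups overlapped. The log2 fold change was -0.14 ± 0.075 (95% interval -0.30 to 0.02, edgeR adjusted p = 0.275). Without apigenin 2 it was -0.23 ± 0.063 and was called lower (edgeR adjusted p = 0.0191), a setting in which 9.97% of all genes were called lower. Without apigenin 3 it was -0.06, and with the length trend removed -0.08 (edgeR adjusted p = 0.594 and 0.432).

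SLC30A1 and SLC39A14 changed places in the order of levels per length, a pair noticed after their values were seen. Within a library, the ratio of SLC30A1 to SLC39A14 FPKM was 0.951, 0.941 and 0.916 with DMSO and 1.14, 1.15 and 1.33 with apigenin. The exporter was thus below the importer in each DMSO library and above it in each apigenin library. Mean ratios were 0.936 ± 0.018 and 1.21 ± 0.105 (SD, n = 3 per group), given as a description. An exact two-sided permutation test gave p = 0.1, the smallest value possible with these group sizes. It cannot decide whether the ratio differs, because the pair was picked for this switch. Such a ratio does not depend on the scaling of the libraries, and the genes, of 5893 and 6294 nucleotides, are close in length.

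SLC39A10 and SLC39A6 encode closely related importers that pair with each other. SLC39A10 (chromosome 2, 195613029 to 195737700, plus strand) had 88.2, 89.9 and 94.0 CPM with DMSO and 84.4, 90.1 and 73.9 CPM with apigenin. Its groups overlapped, with apigenin 3 lowest (log2 fold change -0.13 ± 0.074, 95% interval -0.29 to 0.03, edgeR adjusted p = 0.304). At 11039 nucleotides by the FPKM it is the longest of the 10, and with the length trend removed it stood at 0.02 ± 0.051. SLC39A6 (chromosome 18, 36108531 to 36129340, minus strand) had 79.9, 77.1 and 86.2 CPM with DMSO and 77.7, 92.2 and 83.8 CPM with apigenin. Here the highest library was apigenin 2, and the groups overlapped (log2 fold change 0.06 ± 0.074, 95% interval -0.10 to 0.22, edgeR adjusted p = 0.666).

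SLC39A1 lies on chromosome 1 (153959110 to 153968184, minus strand) and overlaps the span of CREB3L4 on the other strand. It had 267, 258 and 260 CPM with DMSO and 291, 265 and 283 CPM with apigenin. Apigenin 2 lay among the DMSO libraries and the other apigenin libraries above them (log2 fold change 0.09 ± 0.055, 95% interval -0.02 to 0.21, edgeR adjusted p = 0.321). SLC39A4, which encodes the importer of the gut that is mutated in the zinc deficiency acrodermatitis enteropathica, was the lowest of the 10 per length. The gene, on chromosome 8 (144412414 to 144416844), had 14.0, 13.9 and 14.1 CPM with DMSO and 15.1, 14.0 and 19.3 CPM with apigenin. The rise of its mean came mostly from apigenin 3. The log2 fold change was 0.20 ± 0.123 (95% interval -0.06 to 0.47, edgeR adjusted p = 0.337), and 0.05 without that library.

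**Figure D3:**
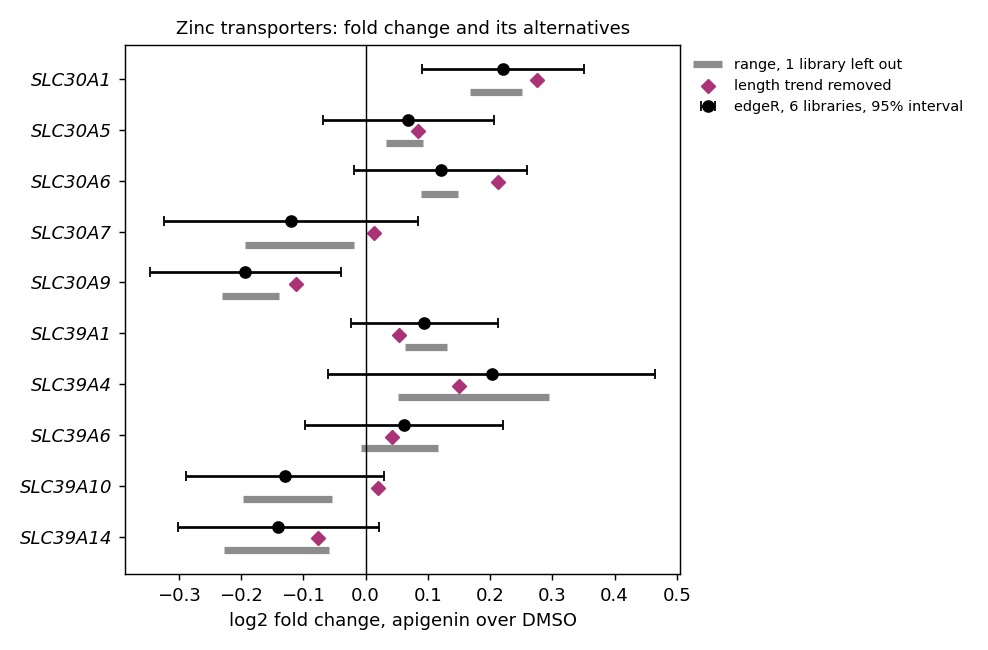
Log2 fold change, apigenin over DMSO, of each zinc transporter gene by edgeR with its 95% interval (black), with the length trend removed (purple diamonds), and the range when 1 library was left out (grey bars). The intervals of SLC30A1 and SLC30A9 lie off 0, and the diamonds of SLC30A7 and SLC39A10 lie on the other side of 0 from the black points.

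Gene length ran alongside the direction of most of the 10. The 3 shortest, SLC39A4, SLC39A1 and SLC39A6, had log2 fold changes of 0.20, 0.09 and 0.06, and of 0.15, 0.05 and 0.04 with the trend removed. The 2 longest, SLC39A10 and SLC30A7, had -0.13 and -0.12, and 0.02 and 0.01 with the trend removed. SLC30A1 and SLC30A6 had values above 0 at lengths where the median of all tested genes lay below 0. SLC30A5 had 0.068, and 0.085 with the trend removed. With the trend removed, SLC30A1 and SLC30A6 were called higher and 0 of the 10 lower by edgeR, the median of the 10 was 0.05 (0.048 before rounding), and over all genes 4.63% were called higher and 5.38% lower.

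**Figure D4:**
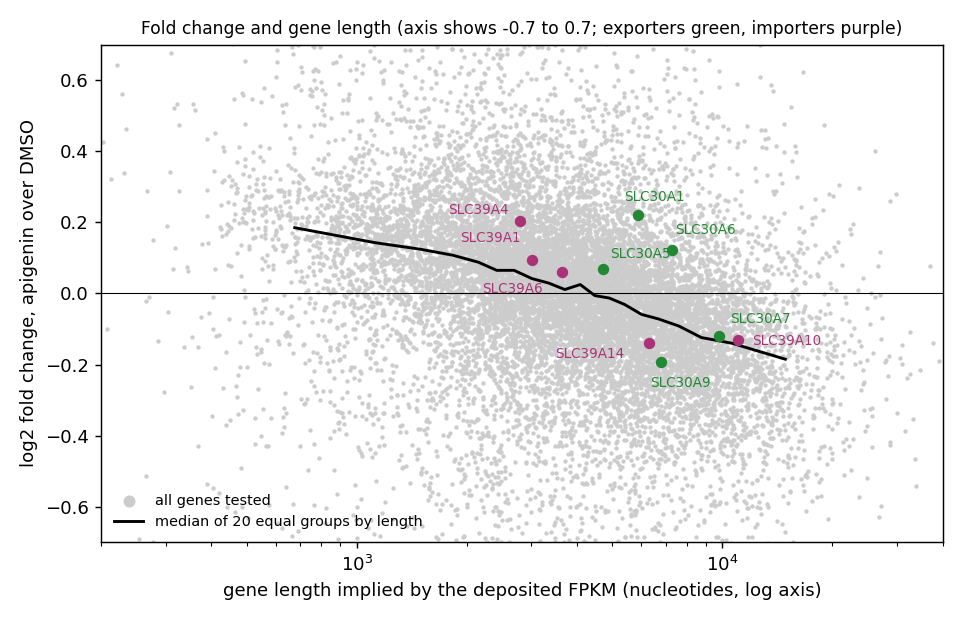
Log2 fold change against gene length (log axis) for all tested genes (grey, axis limited to -0.7 to 0.7), with the median of 20 equal groups by length as a line, exporters and vesicle loaders in green and importers in purple. SLC30A7 and SLC39A10 lie on the line, while SLC30A1 and SLC30A6 lie above it and SLC30A9 and SLC39A14 below.

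The 3 genes with profiles closest to that of SLC30A1 over the 6 libraries were LOC102724908, GNA13 and UBASH3B. Their root mean square differences from it in log2 CPM relative to the DMSO mean were 0.030, 0.032 and 0.035, among the 10712 tested genes whose mean reached 5 CPM. GNA13, which encodes a G protein subunit, had a log2 fold change of 0.24 ± 0.064 and UBASH3B, which encodes a phosphatase, of 0.25 ± 0.061. Values near that of SLC30A1 follow from the way these genes were picked.

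Other members of both families were not called. Of the other SLC39 genes 6 were tested and 0 passed by edgeR (1 higher and 1 lower at an unadjusted p under 0.05, 0 by DESeq2). SLC39A3, a plasma membrane importer gene, had 28.6, 26.1 and 29.0 CPM with DMSO and 32.5, 32 and 34.6 CPM with apigenin, with no overlap (log2 fold change 0.24 ± 0.079, edgeR adjusted p = 0.0778), and was called with the length trend removed (0.24, edgeR adjusted p = 0.0495). SLC39A7, which releases zinc from the endoplasmic reticulum, was the most abundant of these 6 in CPM and had a log2 fold change of 0.06 ± 0.062 (edgeR adjusted p = 0.638). SLC39A11 had -0.19 ± 0.077 (edgeR adjusted p = 0.155). Of the other SLC30 genes only SLC30A4 had enough counts to be tested (-0.14 ± 0.323, edgeR adjusted p = 0.844). SLC30A10, which exports manganese, had at most 1 count in any library.

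Metallothionein genes were set beside the transporters, and MT2A and MT1X rose. Whether MTF1 has a part in their rise or in that of SLC30A1 was not tested. MT2A went from 9.07, 8.32 and 7.5 CPM to 25.2, 23.6 and 29.0 CPM (log2 fold change 1.64 ± 0.114, edgeR adjusted p = 1.69e-06). MT1X stood at 1.78 ± 0.189 (edgeR adjusted p = 9.72e-05). Of the 12 listed genes of metallothioneins and MTF1, 10 were in the tables and 6 were tested, of which 4 were called higher and 0 lower. Only MT2A, MT1X and MTF1 reached the count filter in all libraries of both groups. The other 3 tested genes, MT1E, MT1G and MT1M, passed it only through the apigenin libraries, so that the filter selected for higher apigenin values, and the count of 4, which includes MT1G and MT1M, is no support for a rise of the list. All libraries of MT2A and MT1X lay apart between the groups, but these genes are short members of a family of similar sequences, so the level of each is uncertain. How reads that match several members were counted was not tested. MTF1 itself had 25.7, 26.4 and 24.7 CPM with DMSO and 25.4, 23.2 and 20.7 CPM with apigenin and did not pass (-0.15 ± 0.092, edgeR adjusted p = 0.349).

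Genes of zinc-dependent enzymes at the cell surface or secreted, several of which receive zinc in the pathway that SLC30A5, SLC30A6 and SLC30A7 supply, went both ways. Of 6 tested, 1 was called higher and 2 lower, against 2.76% and 4.22% of all tested genes. ENPP2, which encodes the secreted lysophospholipase autotaxin, rose from 22.7, 23.0 and 22.8 CPM to 33.1, 35.8 and 32.1 CPM (log2 fold change 0.56 ± 0.079, edgeR adjusted p = 0.00108), and was called in each of the 17 other settings. NT5E, which encodes the adenosine-forming ectoenzyme CD73, fell from 95.5, 99.3 and 97.6 CPM to 84.2, 86.7 and 79.6 CPM (-0.22 ± 0.061, edgeR adjusted p = 0.0415). ENPP1, which encodes a pyrophosphate-forming ectoenzyme, fell from 24.2, 21.8 and 21.8 CPM to 17.9, 19.3 and 14.3 CPM (-0.40 ± 0.112, edgeR adjusted p = 0.0485). Leaving out any 1 of the DMSO libraries or apigenin 1 ended both calls, and leaving out apigenin 3 also ended that of ENPP1. Across the alternatives the adjusted p reached 0.17 for NT5E (edgeR without DMSO 3) and 0.265 for ENPP1 (limma on log2(FPKM + 1) without a filter). The liver and bone alkaline phosphatase gene ALPL was below 1 CPM in every library.

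Genes for other metals were set beside these because SLC39A14 also carries iron and manganese. Of 11 tested genes of iron and manganese handling, edgeR called 3 lower and 0 higher, against 4.22% and 2.76% of all tested genes. At an unadjusted edgeR p under 0.05, 5 of the 11 were lower and 1 higher, against 1917 and 1780 of all 15173. DESeq2 called 3 lower and 0 higher. CP, which encodes the ferroxidase ceruloplasmin and whose span overlaps HPS3, fell from 704, 653 and 714 CPM to 526, 564 and 529 CPM (log2 fold change -0.36 ± 0.055, edgeR adjusted p = 0.00195). SLC40A1, the iron exporter gene, fell from 409, 408 and 405 CPM to 339, 363 and 336 CPM (-0.24 ± 0.053, edgeR adjusted p = 0.0179), and stood at -0.26 with the length trend removed. The call ended when any 1 of the DMSO libraries or apigenin 1 was left out, and edgeR adjusted p reached 0.124 across the alternatives. TF, the transferrin gene, whose span overlaps SRPRB on the same strand, stood at -0.24 ± 0.059 (edgeR adjusted p = 0.03). With the length trend removed it stood at 0.004. That value rests on the 21225 nucleotides behind the deposited FPKM, which need not be the length of its main transcript. The call of TF ended when any 1 of the DMSO libraries or apigenin 1 was left out.

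Of 7 copper genes 1 was called lower and 0 higher, against 4.22% and 2.76% of all tested genes. It was ATP7A, which encodes a copper exporter and fell from 79.3, 79.5 and 78.2 CPM to 56.0, 65.9 and 45.3 CPM (log2 fold change -0.50 ± 0.102, edgeR adjusted p = 0.0105). The apigenin libraries all lay below the DMSO libraries, and apigenin 3 was lowest. ATP7A overlaps PGAM4 and stood at -0.40 with the length trend removed. Its call too ended when any 1 of the DMSO libraries or apigenin 1 was left out, and limma on log2(FPKM + 1) without a filter gave the highest adjusted p of the alternatives, 0.172. SLC31A1, the main copper importer gene, had 0.06 ± 0.057 (edgeR adjusted p = 0.589).

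**Figure D5:**
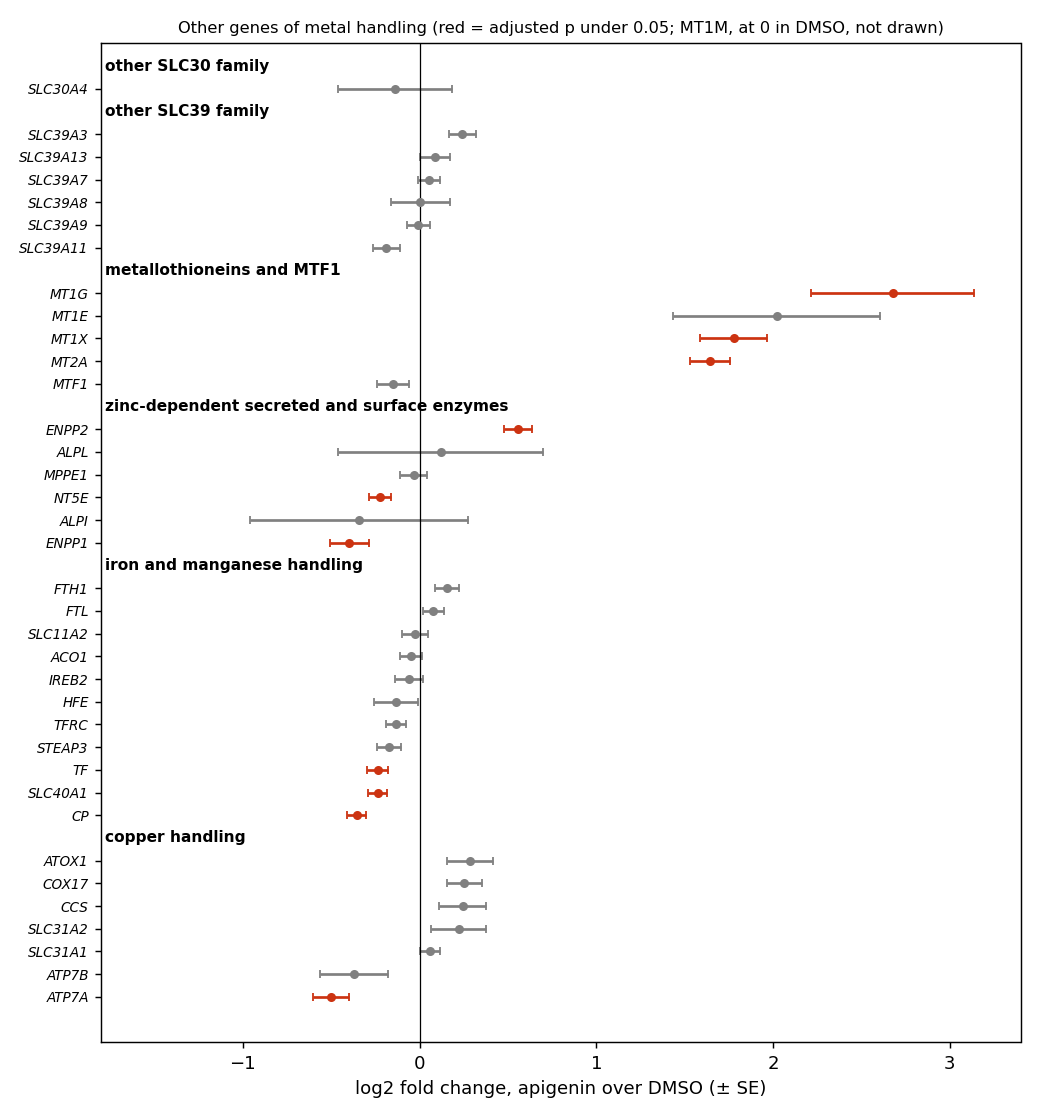
Log2 fold change, apigenin over DMSO, ± SE (n = 3 per group) for the other tested genes of zinc, iron, manganese and copper handling, grouped by list. Red marks an edgeR adjusted p under 0.05, as for MT2A at 1.64, ENPP2 at 0.56, CP at -0.36 and ATP7A at -0.50, and MT1M, with 0 counts in the DMSO libraries, is not drawn.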

How the data were processed

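Total RNA of 6 samples, assigned to DMSO or apigenin from the titles, was made into libraries with a VAHTS kit, per the labels' protocols. The submitters' processing notes name fastp, HISAT2, HTSeq and GRCh38, but the sources used here give neither versions nor the strand setting. The authors deposited unnormalized read counts by gene symbol, and FPKM. The deposited FPKM of 100% of genes equal the count over a fixed gene length and the total count of the library, within a relative tolerance of 0.0001, which gave the lengths. A count of 0 allows 0.079 to 0.0885 CPM (3 counts, counting error only).

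Counts were tested with edgeR 4.0.16 (R 4.3.3, TMM factors, default filter, quasi-likelihood test, Benjamini-Hochberg adjustment over all 15173 tested genes, threshold 0.05). SE is the log2 fold change over the root of F. CPM are TMM-scaled. Alternatives were DESeq2 1.42.0, limma 3.58.1 on log2(FPKM + 1) and log2(FPKM + 0.1), other factors and filters, a replicate block, each library left out, and each library's lowess trend (span 0.3) on log2 length removed. The steps were tested on simulated data. The members, lists and rules were chosen with earlier results of these data known. Named were the 10 transporters, MT1X, MT2A and MTF1, up to 4 called genes per list (mean of 1 CPM or more) and the 3 profiles closest to a called transporter's. SLC39A3, SLC39A7, SLC39A11, SLC30A4, SLC30A10, MT1E, MT1M, ALPL and SLC31A1 were named after their values were seen. Positions and sequences are from RefSeq, GRCh38.p14, in which all 10 symbols matched and 8 had upstream sequence.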

Additional observations from a re-analysis of the deposited data

How the results depend on the processing

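Over the 10 transporters and 17 alternatives, 153 of 170 fold changes kept their direction and their side of the threshold, 8 (all SLC30A1) lost the call, 4 gained one and 5, of genes never called, changed sign. SLC30A1 kept its call in 9 of 17. Among the transporters 0 were called higher with the replicate block (edgeR adjusted p = 0.0584 for SLC30A1) and by limma on log2(FPKM + 1), log2(FPKM + 0.1) or log2(FPKM + 1) without a filter (limma adjusted p = 0.071, 0.0736 and 0.15), 2 with the length trend removed, alone or with the replicate block, and 0 to 1 with 1 library left out. Called lower were 0 to 1 with 1 library left out. With the length trend removed, without and with the block, SLC30A7 stood at 0.014 and 0.015 and SLC39A10 at 0.020 in both, and SLC39A6 ranged from -0.007 (without apigenin 2) to 0.117 with 1 library left out. Over all genes, 658 were called higher by DESeq2, 865 higher and 1096 lower without a filter, 702 higher with the length trend removed and 828 with the block added. By limma on log2(FPKM + 1) and log2(FPKM + 0.1) 303 and 289 were lower, and without a filter 78 higher and 60 lower. With 1 library left out 103 to 1344 were higher and 157 to 1546 lower. The replicate block alone gave 455 higher and 776 lower, and the labels do not say that the numbers pair cultures. Deviations of same-numbered libraries correlated at -0.017, -0.019 and -0.048, and no library correlated best with its own number. The cause of these shifts was not tested. Each transporter had 488 counts or more in every library; the parts of depth and of the number of libraries in the width of the intervals were not tested.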
